A study of Mus musculus with 12 samples.

Results

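The co-receptor genes of thymocytes are Cd4, which encodes the CD4 co-receptor, and Cd8a and Cd8b1, which encode the alpha and beta chains of the CD8 co-receptor. They were found by symbol in both deposited count tables, which hold the same 49997 genes, so the set is 3 genes of 49997 and every one had reads in every library. Sorted mouse thymocytes were profiled by RNA-seq of poly(A) transcripts in 4 groups of 3 libraries: CD4 cells with a tamoxifen-induced Satb1 knockout (CD4 KO), CD4 cells of wild-type genotype (CD4 WT), DP cells with the same induced knockout (DP KO) and DP cells of wild-type genotype (DP WT). All 12 libraries, wild type included, came from tamoxifen-treated animals. The sources used here do not give the Cre driver, the deleted part of Satb1, the strain, the ages, the sort gates or whether a library came from 1 mouse or several. The p-values therefore cover the variation among these libraries alone, and some of it may be technical.

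CD4 binds MHC class II and CD8 binds MHC class I, and each brings the kinase LCK to the T cell receptor. DP thymocytes carry both co-receptors. After positive selection a thymocyte keeps one and shuts the other off, the choice that separates helper from cytotoxic cells. CD8 on thymocytes is mostly a heterodimer of the alpha and beta chains, and the alpha chain is needed to bring the beta chain to the surface. SATB1 is a nuclear protein that organises chromatin loops and enhancers in thymocytes. The cell types were sorted and bear the names of the co-receptor proteins, so the levels of these 3 genes between CD4 and DP cells are given as a description, with no test. In bulk RNA, fewer cells that use a gene and less of its RNA per cell cannot be told apart.

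Sequencing depth, as total counts, was highest for CD4 KO replicate 2 (62422640) and lowest for DP WT replicate 3 (22790504), and the 3 genes had between 1862 and 129869 reads a library. The targeted gene, Satb1, was at 1498 ± 40.6 CPM in CD4 KO and 3270 ± 258 CPM in CD4 WT, and at 2608 ± 231 CPM in DP KO and 3864 ± 29.1 CPM in DP WT (mean ± SD, n = 3 each), where CPM are counts scaled to a common library size by TMM. DP WT replicates 1 and 2 had under 1 CPM of the X-inactivation transcript Xist (0.845 and 0.273), against 190 to 601 CPM in the other 10 libraries. The Y-linked gene Ddx3y was at 40.3 to 127 CPM in all 12, so 10 libraries held both a transcript typical of female cells and one of male cells. Results in DP cells are therefore also given with DP WT replicate 3 as the lone DP WT library. B cell markers summed to at most 12.4 CPM in any library and myeloid and dendritic markers to at most 49.5 CPM. The dendritic genes Xcr1 and Clec9a, of cells that can carry CD8 alpha, were at no more than 1.16 and 0.674 CPM. Siglech and Itgax of the same list reached 16.1 and 5.66 CPM, both in CD4 WT replicate 1. Erythroid markers varied more, from 12.4 CPM in CD4 WT replicate 3 to 182 CPM in DP KO replicate 2. Stroma markers summed to 145 to 215 CPM, nearly all of it Pecam1.

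All 3 genes lie on chromosome 6 of mm10. Cd8b1 (71322788 to 71337492, plus strand) and Cd8a (71373427 to 71379171, plus strand) are neighbours, with 35.9 kb between them. Cd4 (124864693 to 124888247, minus strand) lies 53486 kb away. No other gene of the tables overlaps their spans. The counts are over all annotated exons of a gene, which add up to 3470 bases for Cd4, 3130 for Cd8a and 1481 for Cd8b1, and levels are compared between genes only as CPM per kilobase of that length.

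RefSeq's table of promoters for GRCm38.p6 held 1 of the 3 genes, Cd8a, and its 250 bases before the start are shown. The window is chr6:71373177-71373426, plus strand. Capitals mark the letters CANNTG, the E-box that E proteins such as those of Tcf3 and Tcf12 bind.
Cd8a: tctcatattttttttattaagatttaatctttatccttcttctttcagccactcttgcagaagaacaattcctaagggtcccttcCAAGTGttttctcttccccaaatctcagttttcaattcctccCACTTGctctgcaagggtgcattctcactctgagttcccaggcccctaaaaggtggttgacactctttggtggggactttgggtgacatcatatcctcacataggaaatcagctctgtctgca
The letters CANNTG, which read as CANNTG on both strands, were found 2 times, starting 165 and 123 bases before the start, and 66.2% of the 32851 promoter windows of the same length in that table hold them at least once. The letters TGTGGT, the core that RUNX proteins bind, were searched on both strands and were not in this window, while 14.0% of the windows hold them. A and T made up 57.2% of the window, against a median of 47.6% over all windows.

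The first comparison asked what loss of Satb1 did to the co-receptor genes in CD4 cells. Cd4 fell and Cd8b1, a gene that cells of the CD4 lineage normally shut off, rose, whereas Cd8a did not pass the test. Cd4 fell by 0.76 and Cd8b1 rose by 1.38 on the log2 scale. That is 2 of 3 genes called at an adjusted p under 0.05, where 39.5% of the 17316 genes tested in CD4 cells were called, 20.9% higher and 18.6% lower.

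Cd4 was at 675, 601 and 693 CPM in CD4 KO replicates 1, 2 and 3, against 1171, 1165 and 995 CPM in CD4 WT replicates 1, 2 and 3. Every KO library lay below every WT library. The log2 fold change was -0.76 ± 0.09 (SE; adjusted p = 0.000143).

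Cd8b1 was at 252, 232 and 326 CPM in CD4 KO replicates 1, 2 and 3, against 120, 108 and 82.0 CPM in CD4 WT replicates 1, 2 and 3. All KO libraries were above all WT libraries, and KO replicate 3 was the highest. The log2 fold change was 1.38 ± 0.16 (adjusted p = 0.00012). It was between 1.23 and 1.50 when any 1 of the 6 libraries was left out.

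Cd8a was at 168, 153 and 161 CPM in CD4 KO replicates 1, 2 and 3, against 152, 130 and 62.4 CPM in CD4 WT replicates 1, 2 and 3. The groups did not overlap, but the lowest KO library and the highest WT library were less than 1 CPM apart, and WT replicate 3 stood well below the other two. The log2 fold change was 0.48 ± 0.25, with a 95% interval of -0.09 to 1.05 (adjusted p = 0.166). It was 0.19 without CD4 WT replicate 3 (adjusted p = 0.116) and 0.73 without CD4 WT replicate 1 (adjusted p = 0.0632). With the batch number of the labels as a replicate block it was 0.57 and passed (adjusted p = 0.0435). With no low-count filter it was 0.49 and passed (adjusted p = 1.12e-08), but with an SE of 0.08 against 0.25 in the main fit. The SE was also 0.08 for Cd4 and Cd8b1 in that fit, so it did not follow the wider spread of Cd8a. Cd8a did not pass with the Wald test of DESeq2 (adjusted p = 0.332) or with limma-voom (adjusted p = 0.116).

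**Figure D1:**
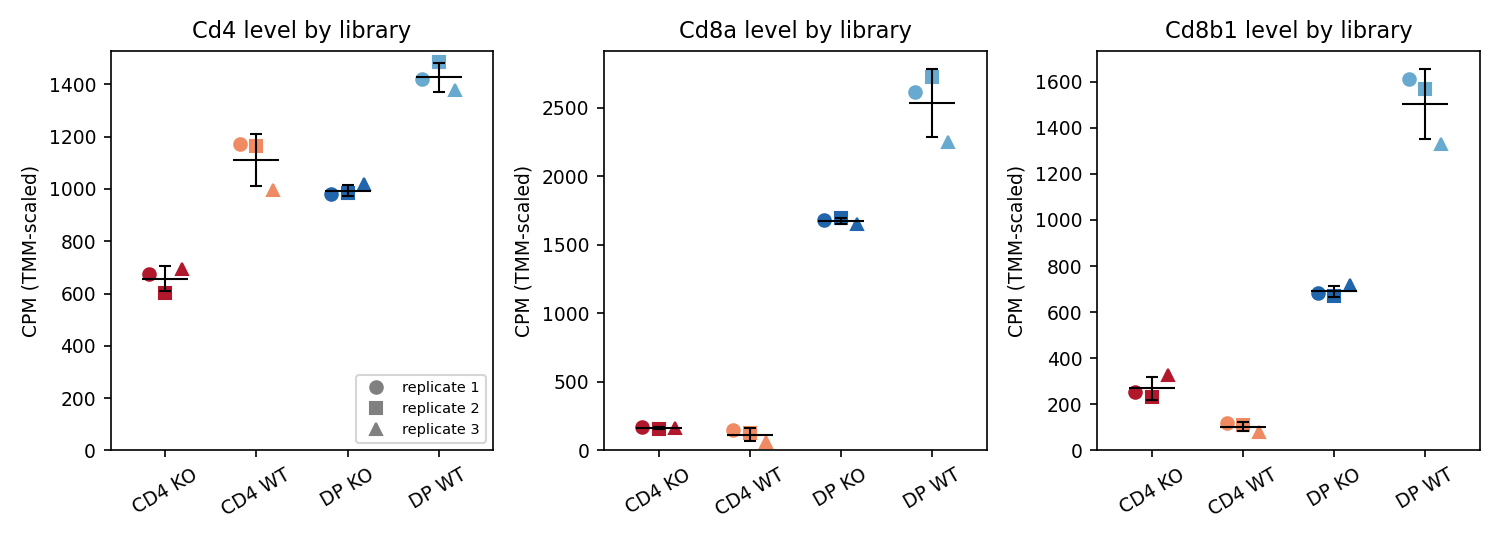
Level of Cd4, Cd8a and Cd8b1 in each library, in CPM, with 1 symbol per replicate, the group mean as a horizontal line and the SD as an error bar (n = 3). Cd8b1 was at 232 to 326 CPM in CD4 KO and at 82.0 to 120 CPM in CD4 WT, and all 3 genes were lower in DP KO than in DP WT in every library.

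In DP cells, where all 3 genes are normally on, all 3 fell in the knockout, Cd8b1 the most. That is 3 of 3 called lower, where 30.8% of the 16776 genes tested in DP cells were called in either direction and 14.1% lower. Cd4 was at 979, 983 and 1020 CPM in DP KO replicates 1, 2 and 3, against 1419, 1484 and 1377 CPM in DP WT replicates 1, 2 and 3, which gave -0.51 ± 0.06 on the log2 scale (adjusted p = 0.000315). The libraries of Cd4 were close together within each genotype and far apart between them.

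Cd8a was at 1683, 1692 and 1651 CPM in DP KO replicates 1, 2 and 3, against 2618, 2725 and 2253 CPM in DP WT replicates 1, 2 and 3. The KO libraries were within 41 CPM of each other, and WT replicate 3 was the lowest of its group but above all of them. The log2 fold change was -0.58 ± 0.08 (adjusted p = 0.00059). The call was narrowly lost in 1 model over all 12 libraries, which shares the spread of Cd8a in CD4 cells (-0.60, adjusted p = 0.0521).

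Cd8b1 was at 683, 669 and 718 CPM in DP KO replicates 1, 2 and 3, against 1613, 1567 and 1328 CPM in DP WT replicates 1, 2 and 3. Again no KO library reached a WT library. The log2 fold change was -1.11 ± 0.08 (adjusted p = 1.5e-05). With DP WT replicate 3 as the lone DP WT library all 3 genes were still called lower, at -0.47 for Cd4 (adjusted p = 0.0309), -0.43 for Cd8a (0.0405) and -0.94 for Cd8b1 (0.00227).

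The difference between the cell types was tested as the KO effect in CD4 cells minus that in DP cells. Cd8b1 and Cd8a differed between the cell types and Cd4 did not pass, so 2 of 3 genes were called higher, where 27.8% of the 18431 genes tested were called, 14.4% higher and 13.4% lower. For Cd8b1 the difference was 2.50 ± 0.20 on the log2 scale (adjusted p = 1.59e-06). For Cd8a it was 1.08 ± 0.31 (adjusted p = 0.0186), and 0.75 without CD4 WT replicate 3 (adjusted p = 0.000537). The call of Cd8a was lost with DP WT replicate 3 as the lone DP WT library (0.92, adjusted p = 0.145). For Cd4 it was -0.24 ± 0.11, with a 95% interval of -0.47 to -0.01 (adjusted p = 0.123), and Cd4 was called without CD4 WT replicate 3 (-0.34, adjusted p = 0.0175).

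By group means per kilobase, the order of the 3 genes was the same in CD4 KO and CD4 WT. It differed between DP KO and DP WT. In CD4 KO replicate 3, though, Cd8b1 was above Cd4, at 220 and 200 CPM per kilobase. In CD4 KO, Cd4 and Cd8b1 stood together at 189 ± 14.0 and 182 ± 33.5 CPM per kilobase, which did not differ beyond their spread, and Cd8a was far below at 51.3 ± 2.48. In CD4 WT, Cd4 was at 320 ± 28.7, Cd8b1 at 69.8 ± 13.2 and Cd8a at 36.7 ± 14.9 CPM per kilobase, with no overlap between the genes' libraries. In DP KO, Cd8a led at 535 ± 6.84, followed by Cd8b1 at 466 ± 17.0 and Cd4 at 286 ± 6.57 CPM per kilobase. In DP WT, Cd8b1 led at 1014 ± 103, followed by Cd8a at 809 ± 79.1 and Cd4 at 411 ± 15.6 CPM per kilobase, again with no overlap between genes in either DP group. By this level Cd8b1 ranked 245th in CD4 KO and 838th in CD4 WT among 18431 genes, and 109th in DP KO and 30th in DP WT. Cd4 ranked 231st in CD4 KO and 143rd in CD4 WT, and 177th in DP KO and 114th in DP WT.

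Ratios within a library do not depend on how libraries were scaled, and they put the CD8 genes directly against Cd4. The ratio of Cd8b1 to Cd4, per kilobase, was 0.873, 0.903 and 1.10 in CD4 KO replicates 1, 2 and 3, against 0.241, 0.217 and 0.193 in CD4 WT replicates 1, 2 and 3. Per kilobase of annotated exon length, CD4 KO cells thus had about as much Cd8b1 as Cd4. In CD4 WT cells Cd4 was several times higher on that scale. In DP cells the same ratio went the other way, with 1.63, 1.60 and 1.65 in DP KO replicates 1, 2 and 3, against 2.66, 2.47 and 2.26 in DP WT replicates 1, 2 and 3. On the log2 scale the difference between KO and WT was 2.14 in CD4 cells and -0.60 in DP cells.

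The ratio of Cd8b1 to Cd8a, the beta against the alpha chain, was 3.16, 3.21 and 4.28 in CD4 KO replicates 1, 2 and 3, against 1.68, 1.75 and 2.78 in CD4 WT replicates 1, 2 and 3. The KO libraries were all higher, with WT replicate 3 closest to them. In DP cells it was 0.858, 0.836 and 0.919 in DP KO replicates 1, 2 and 3. In DP WT replicates 1, 2 and 3 it was 1.30, 1.21 and 1.25. Per kilobase of annotated exon length Cd8b1 thus stood above Cd8a in every library but those of DP KO. The order depends on that length. By reads, Cd8a was above Cd8b1 in every DP library (114662 and 70628 in DP WT replicate 1) and in CD4 WT replicates 1 and 2. The log2 differences of the ratio between KO and WT were 0.80 in CD4 cells and -0.53 in DP cells.

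The ratio of Cd8a to Cd4 was 0.276, 0.281 and 0.257 in CD4 KO replicates 1, 2 and 3, against 0.144, 0.124 and 0.0695 in CD4 WT replicates 1, 2 and 3, a log2 difference of 1.34. Both the fall of Cd4 and the higher Cd8a enter this value. In DP cells it was 1.91, 1.91 and 1.79 in DP KO replicates 1, 2 and 3, against 2.05, 2.04 and 1.81 in DP WT replicates 1, 2 and 3. Here the groups overlapped, with a log2 difference of -0.07 that turned to 0.043 with DP WT replicate 3 as the lone DP WT library. The falls of Cd8a and Cd4 in DP KO were thus close in size, and the shift of the Cd8b1 ratios came with the larger fall of Cd8b1.

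With 3 libraries against 3, an exact two-sided permutation test cannot give a p below 0.1. Over the 6 ratio comparisons, 5 reached this smallest value (exact permutation p = 0.1, adjusted p = 0.12 over the 6). In these 5 no KO library overlapped a WT library. The share of other gene pairs whose ratios separate as fully was not computed, so the count of 5 is a description. The ratio of Cd8a to Cd4 in DP cells gave an exact permutation p of 0.3 (adjusted p = 0.3). All 3 same-numbered pairs moved in the direction of the mean in each of the 6 comparisons.

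**Figure D2:**
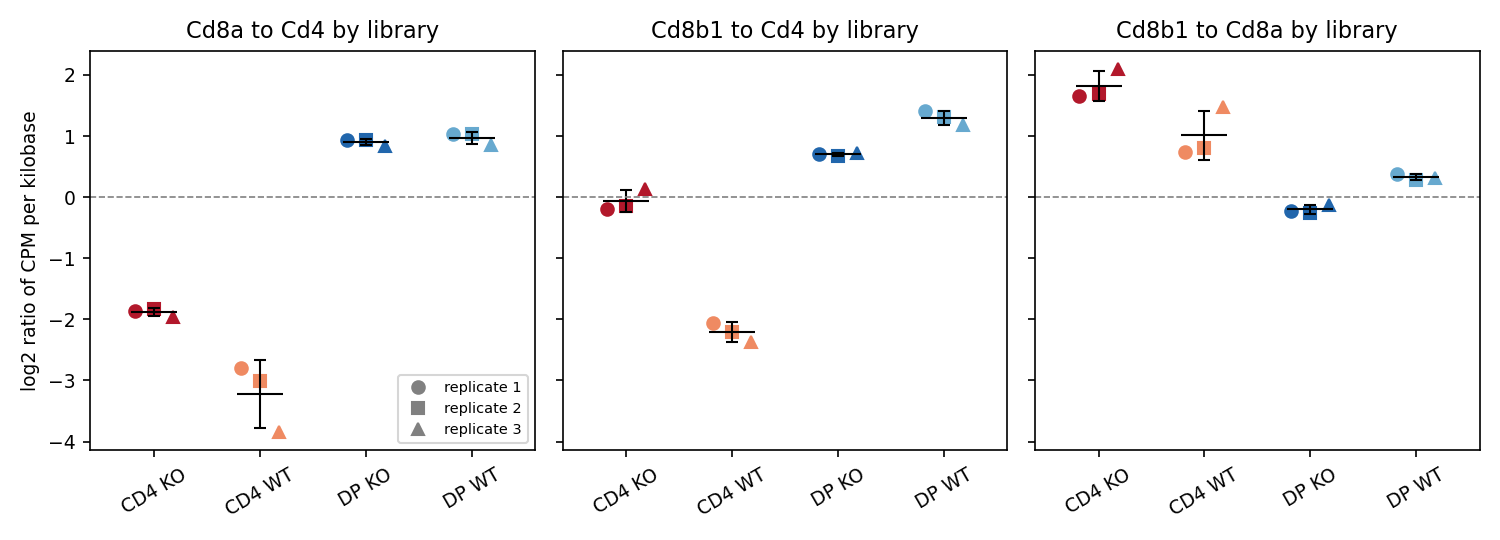
Log2 ratio of CPM per kilobase for each pair of co-receptor genes in each library, with 1 symbol per replicate, the group mean as a horizontal line and the SD as an error bar (n = 3); the dashed line marks equal levels. The Cd8b1 to Cd4 ratio lay near equality in CD4 KO (-0.20 to 0.14) and at -2.37 to -2.05 in CD4 WT.

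CD4 cells of both genotypes kept some RNA of both CD8 genes, and in the knockout the alpha and beta genes differed in how far below DP cells they stood. In the knockouts Cd8b1 in CD4 cells was at 39.1% of its mean CPM in DP cells and Cd8a at 9.58%. In wild type Cd8b1 was at 6.89% and Cd8a at 4.53%. Most genes that mark DP cells were higher in CD4 KO, as Cd8b1 was, and 7 DP markers summed to 1577 to 1902 CPM in CD4 KO, against 431 to 544 CPM in CD4 WT. Rag1 and Dntt made up most of that sum. Cd1d1 went the other way, at 52.6 to 57.6 CPM in CD4 KO and 62.4 to 71.8 CPM in CD4 WT.

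Taken one by one, Rag1, which encodes a recombinase subunit, was at 40.4% of its DP level in the knockouts and 4.50% in wild type, and Dntt, the terminal transferase, at 49.3% and 7.29%. Aqp11, an aquaporin gene, was at 39.1% and 7.39%. Rag2 (51.2% and 5.32%) and Arpp21 (54.0% and 6.56%) were alike. Of the remaining markers, Cd1d1 hardly differed between cell types in wild type (106% in the knockouts and 89.9% in wild type), and Ptcra was at 150% and 11.3%, from 5.72 CPM in DP KO. The DP level was itself lower in DP KO than in DP WT for Cd8b1 (690 against 1502 CPM) and Cd8a (1675 against 2532 CPM). The same held for every marker but Aqp11. For Cd8b1, both the higher CD4 KO level and the lower DP KO level thus enter the percentage. In the knockouts Cd8b1 stood at the low end of the DP markers, beside Aqp11 and Rag1, and Cd8a at 9.58% stood below all 7 of them. Whether DP cells or cells not yet past that stage in the CD4 sort contributed to the Cd8b1 value was not tested.

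Markers of CD8 single-positive cells summed to 115 to 141 CPM in CD4 KO, within reach of the 128 to 138 CPM in CD4 WT. Runx3 and Itgae made up most of both sums, and single markers went both ways. Gzmk was higher, at 1.59 to 3.86 CPM in CD4 KO and 0.154 to 0.905 CPM in CD4 WT. Runx3 was lower in CD4 KO, as were Crtam (1.27 to 1.67 against 2.85 to 3.42 CPM) and Klrd1 (3.41 to 4.68 against 6.58 to 12.8 CPM). Itgae, Eomes and Nkg7 overlapped between the groups. All 7 of these markers had counts in both groups. The 7 markers of CD4 single-positive cells summed to 1093 to 1296 CPM in CD4 KO, against 2008 to 2197 CPM in CD4 WT, so they fell short of wild type beside Cd4 itself. In DP cells the DP markers summed to 3588 to 3868 CPM in DP KO and 7556 to 7934 CPM in DP WT, beside the lower co-receptor genes, and their part in that result was not tested. Aqp11 was not lower, at 200 to 233 CPM in DP KO and 179 to 210 CPM in DP WT. The 6 DN markers, of the stage before either co-receptor, summed to 240 to 346 CPM in CD4 KO and 95.9 to 109 CPM in CD4 WT, and to 370 to 472 CPM in DP KO and 22.9 to 38.9 CPM in DP WT; their part was not tested either. Il2ra, which encodes CD25, carried most of the KO sums, at 182 to 289 CPM in CD4 KO and 356 to 454 CPM in DP KO. Cd44 went the other way in both cell types, at 19.4 to 31.2 CPM in CD4 KO and 51.1 to 54.9 CPM in CD4 WT, and at 3.30 to 4.87 CPM in DP KO and 7.35 to 11.7 CPM in DP WT. Of 4 gamma-delta T cell markers 3 were matched in the tables, and they summed to 8.03 to 12.9 CPM in CD4 KO and 9.31 to 12.9 CPM in CD4 WT, with the constant-region gene Trdc at 0 in every library. In DP cells they summed to 4.13 to 5.88 CPM in DP KO and 1.87 to 2.56 CPM in DP WT.

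**Figure D3:**
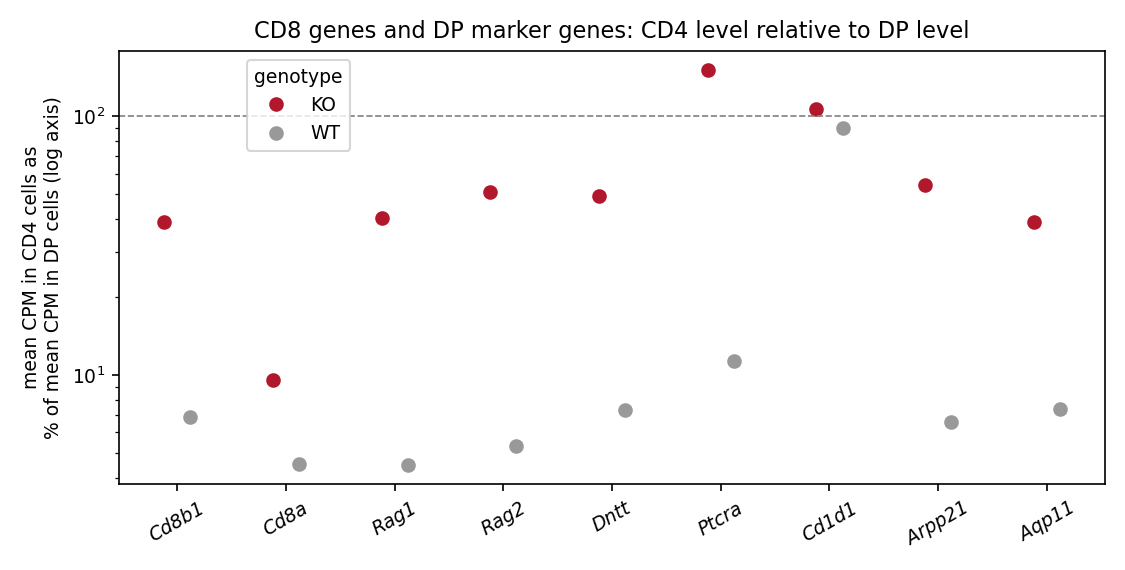
Mean CPM in CD4 cells as a percentage of mean CPM in DP cells, on a log axis, for both CD8 genes and 7 DP marker genes, in knockout and wild type (means of 3 libraries each). In the knockouts Cd8b1 lies at 39.1%, close to Aqp11 and Rag1, and Cd8a at 9.58%.

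Transcription factors and chromatin proteins known to act on the Cd4 and Cd8 genes were described as a list of 17, all of them tested. In CD4 cells 5 were called higher and 6 lower, with a median log2 fold change of 0.00 as over all genes, 39.5% of which were called. In DP cells 3 were higher and 7 lower, with a median of -0.14 against 0.01 over all genes, 30.8% of which were called. With DP WT replicate 3 as the lone DP WT library these DP counts were 1 and 3, beside 1907 genes called in all against 5167 with every library, with Gata3 still higher and Myb, Smarca4 and Ikzf1 still lower, and the calls of Runx1, Tox, Runx3, Tcf7, Lef1 and Patz1 lost.

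Zbtb7b encodes ThPOK, which represses the CD8 genes and keeps Cd4 on in helper-lineage cells. It was at 20.0 to 41.5 CPM in CD4 KO and 355 to 413 CPM in CD4 WT, which gave -3.61 ± 0.23 on the log2 scale (adjusted p = 4.82e-06). In DP cells it was low in both genotypes, at 0.254 to 7.13 CPM in DP KO and 2.41 to 5.32 CPM in DP WT, and did not pass (-0.31, adjusted p = 0.823). It was called lower in DP without KO replicate 2 (-2.39, adjusted p = 0.0133). Runx3, which silences Cd4 and activates the CD8 genes in cytotoxic-lineage cells, was at 51.6 ± 9.58 CPM in CD4 KO and 71.8 ± 6.94 CPM in CD4 WT (-0.48 ± 0.13, adjusted p = 0.018). In DP cells Runx3 was at 9.33 ± 3.60 CPM in DP KO and 16.7 ± 1.62 CPM in DP WT (-0.82 ± 0.24, adjusted p = 0.0308). The DP call of Runx3 was lost without DP KO replicate 1, DP WT replicate 1 or DP WT replicate 3 (adjusted p = 0.0708 to 0.079). Its CD4 call was lost without CD4 WT replicate 1 or 2 (0.0688 and 0.0629) and in 1 model over all 12 libraries (0.092).

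Gata3 and Myb, both needed for the CD4 lineage, were both higher in CD4 KO. Gata3 was at 251 ± 14.0 CPM in CD4 KO and 184 ± 25.4 CPM in CD4 WT (log2 fold change 0.45), and at 353 ± 29.5 CPM in DP KO and 111 ± 4.49 CPM in DP WT (1.68). Myb rose in CD4 KO, at 424 ± 33.1 CPM against 127 ± 9.09 CPM in CD4 WT (1.74), and fell in DP KO, at 662 ± 23.6 CPM against 1219 ± 83.0 CPM in DP WT (-0.87). Myb thus moved in the direction of Cd8b1 in both cell types, as did Smarca4, the ATPase of the BAF complex, at 0.28 in CD4 and -0.70 in DP cells. The E protein genes Tcf12 (1.04) and Tcf3 (0.21) rose in CD4 KO and did not pass in DP KO (0.17 and -0.14). The call of Tcf3 was lost without CD4 KO replicate 1 or 2 or CD4 WT replicate 1 or 2 (adjusted p = 0.0521 to 0.0839).

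Ikzf1, which encodes Ikaros, fell in both cell types, by 0.76 in CD4 KO and by 0.79 in DP KO on the log2 scale. Lef1, a TCF family factor that restrains Cd4 in CD8 cells together with Tcf7, also fell in both, by 1.13 in CD4 KO and by 0.43 in DP KO, the DP call being lost without DP WT replicate 3 (adjusted p = 0.0527). Tcf7 fell in DP KO by 0.46 and was level in CD4 KO at 0.00 (adjusted p = 0.968). Ets1 fell by 0.60 and Bcl11b by 0.32 in CD4 KO, and in DP KO they were at -0.07 and -0.00. Without CD4 KO replicate 1, CD4 KO replicate 2 or CD4 WT replicate 1 the call of Bcl11b was lost (adjusted p = 0.0506 to 0.0573).

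Runx1, the RUNX factor of DP cells, rose by 0.37 in DP KO and was at 0.08 in CD4 KO. Tox, needed for the CD4 lineage, rose by 0.60 in DP KO and was at -0.24 in CD4 KO (adjusted p = 0.0679). In CD4 KO Tox was called lower with the replicate block (adjusted p = 0.0127) and with the Wald test of DESeq2 (0.0375). The same held with no low-count filter (0.017) and without CD4 KO replicate 1 (0.0212). Patz1, which encodes the CD8 repressor MAZR, fell by 0.20 in DP KO. This call was lost with the replicate block (adjusted p = 0.0652) and with no low-count filter (0.234). It was also lost without any 1 of the DP libraries other than DP WT replicate 1 (0.0728 to 0.115). Patz1 was at 0.00 in CD4 KO. Cbfb, the RUNX partner, and Chd4, the ATPase of the NuRD complex, did not pass in either cell type.

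**Figure D4:**
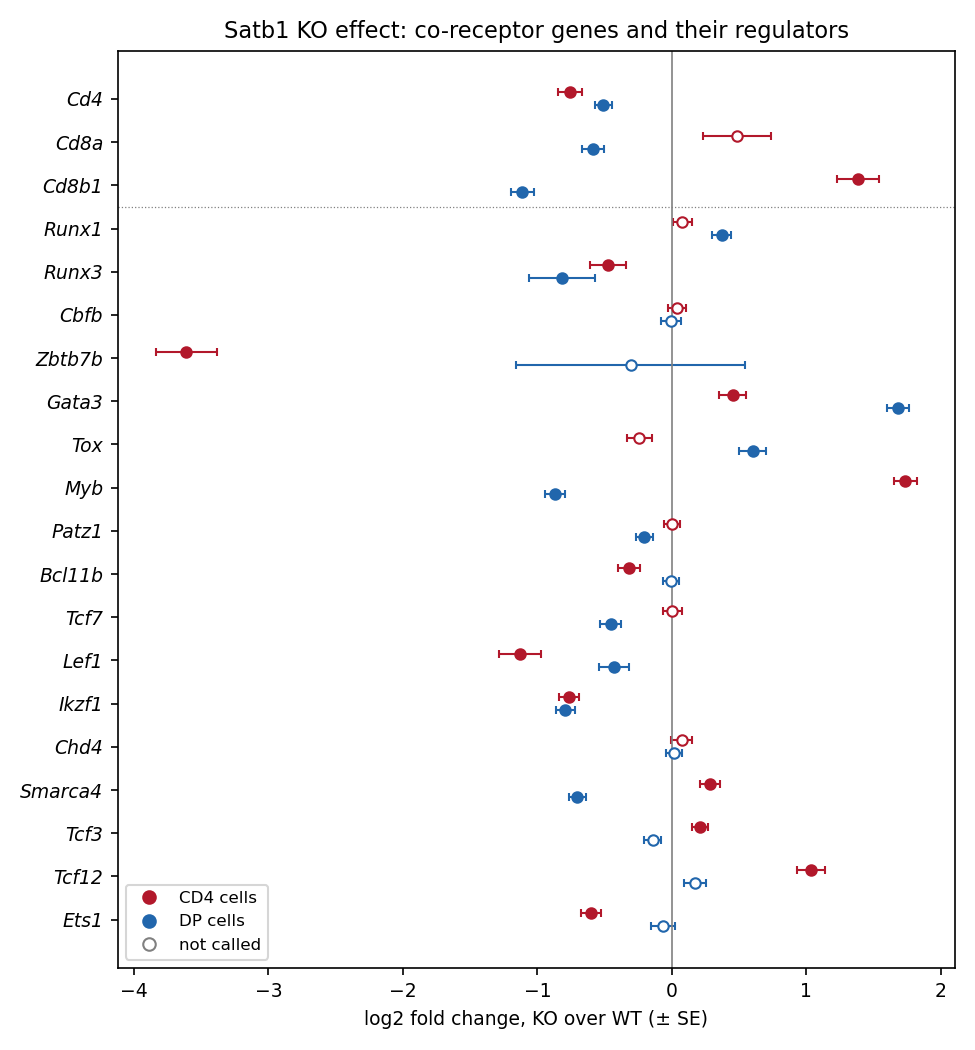
Log2 fold change of KO over WT (± SE) for the 3 co-receptor genes, above the dotted line, and 17 genes known to act on them, in CD4 and DP cells; open symbols did not pass an adjusted p of 0.05. Cd8b1 and Myb lie on opposite sides of 0 in the CD4 and DP cells, while Cd4 and Ikzf1 lie below 0 in both.

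Proteins that work with the co-receptors at the T cell receptor were described as a list of 12, all tested. In CD4 cells 1 was called higher and 9 lower (median log2 fold change -0.39), where 20.9% of all genes were higher and 18.6% lower. In DP cells 3 were higher and 6 lower (median -0.25), where 16.7% of all genes were higher and 14.1% lower. The counts in DP were 0 and 3 with DP WT replicate 3 as the lone DP WT library. Lck, the kinase that both CD4 and CD8 alpha hold by their tails, fell in DP KO, at 1257 ± 83.2 CPM against 1926 ± 254 CPM in DP WT (-0.60 ± 0.10, adjusted p = 0.00176), and was at 981 ± 26.1 CPM in CD4 KO and 1081 ± 57.8 CPM in CD4 WT (-0.14, adjusted p = 0.139). Cd247, the zeta chain, fell by 0.75 in CD4 KO and by 0.63 in DP KO, and Cd3d by 0.62 and by 0.86. Fyn, the other Src kinase of the receptor, fell by 0.95 in CD4 KO and rose by 0.25 in DP KO, a call lost without DP KO replicate 2, DP WT replicate 2 or DP WT replicate 3 (adjusted p = 0.0842 to 0.129). Csk, which inhibits LCK, fell by 0.47 in CD4 KO and rose by 0.37 in DP KO. Themis, an adaptor needed for positive selection, rose by 0.26 in CD4 KO and fell by 0.92 in DP KO, opposite directions shared with Cd8b1. The CD4 call of Themis was lost without CD4 WT replicate 1 (adjusted p = 0.0899) and in 1 model over all 12 libraries (0.0502).

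Genes next to the co-receptor loci were taken as all genes within 200 kb. Over both loci 19 of 39 tested in CD4 cells were called, where 39.5% of all genes were, and 14 of 38 tested in DP cells, where 30.8% were. At the Cd8 locus 10 of 15 neighbours were tested. In DP cells 5 of them were lower and 0 higher, with a median log2 fold change of -0.72, where 14.1% of all genes were called lower. In CD4 cells 3 were higher and 1 lower, with a median of 0.07, where 20.9% of all genes were called higher and 18.6% lower.

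Rmnd5a, a subunit of a ubiquitin ligase whose gene lies 9.46 kb beyond Cd8a, was at 583 ± 21.4 CPM in DP KO and 1643 ± 65.5 CPM in DP WT (-1.48 ± 0.07, adjusted p = 7.66e-07). In CD4 cells it was at 479 ± 48.7 CPM in CD4 KO and 334 ± 9.64 CPM in CD4 WT (0.52 ± 0.08, adjusted p = 0.000827), so it followed the directions of Cd8b1. Smyd1, a muscle methyltransferase gene 60.5 kb on the other side, was at 2.08 ± 0.623 CPM in DP KO and 10.8 ± 1.32 CPM in DP WT (-2.38 ± 0.22, adjusted p = 4.8e-05). It was below 1.1 CPM in every CD4 library, where it did not pass. The predicted gene Gm38828, on the opposite strand 0.131 kb before Cd8b1 and singled out after its values were seen, was at 0.455 ± 0.0484 CPM in CD4 KO and 0.123 ± 0.0513 CPM in CD4 WT (1.79), and at 0.640 ± 0.173 CPM in DP KO and 2.65 ± 0.585 CPM in DP WT (-2.04). It was called in both, with few reads.

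At the Cd4 locus 29 of 35 neighbours were tested in CD4 cells, where 10 were higher and 5 lower with a median of -0.06, and 20.9% of all genes were called higher. Several genes flanking Cd4 rose in CD4 KO while Cd4 fell. Lag3, whose product is a CD4-related receptor for MHC class II that inhibits T cells, lies 16.1 kb before Cd4. It was at 46.5 ± 6.70 CPM in CD4 KO and 5.97 ± 0.802 CPM in CD4 WT (2.95 ± 0.14, adjusted p = 1.23e-06), and at 12.5 ± 1.29 CPM in DP KO and 13.7 ± 3.23 CPM in DP WT (-0.13, adjusted p = 0.626).

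Gpr162, an orphan receptor gene 0.498 kb past the end of Cd4 on the same strand, was at 42.8 ± 5.33 CPM in CD4 KO and 9.35 ± 0.552 CPM in CD4 WT (2.19 ± 0.11, adjusted p = 1.6e-06). It was at 104 ± 2.96 CPM in DP KO and 93.6 ± 8.21 CPM in DP WT (0.16, adjusted p = 0.15). The predicted gene Gm32404 overlaps Gpr162 on the other strand, so counts of both are uncertain if strand was not used. Farther off, Atn1, which encodes the corepressor atrophin, fell in CD4 KO, at 55.2 ± 5.18 CPM against 168 ± 13.5 CPM in CD4 WT (-1.60), and did not pass in DP KO (0.23). Lpar5, a lysophosphatidic acid receptor gene, fell by 1.17 in CD4 KO and rose by 1.21 in DP KO. In DP cells 4 of 28 tested neighbours of Cd4 were higher and 5 lower, a share near the 30.8% of all genes called. The DP count of 14 over both loci was 4 with DP WT replicate 3 as the lone DP WT library.

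**Figure D5:**
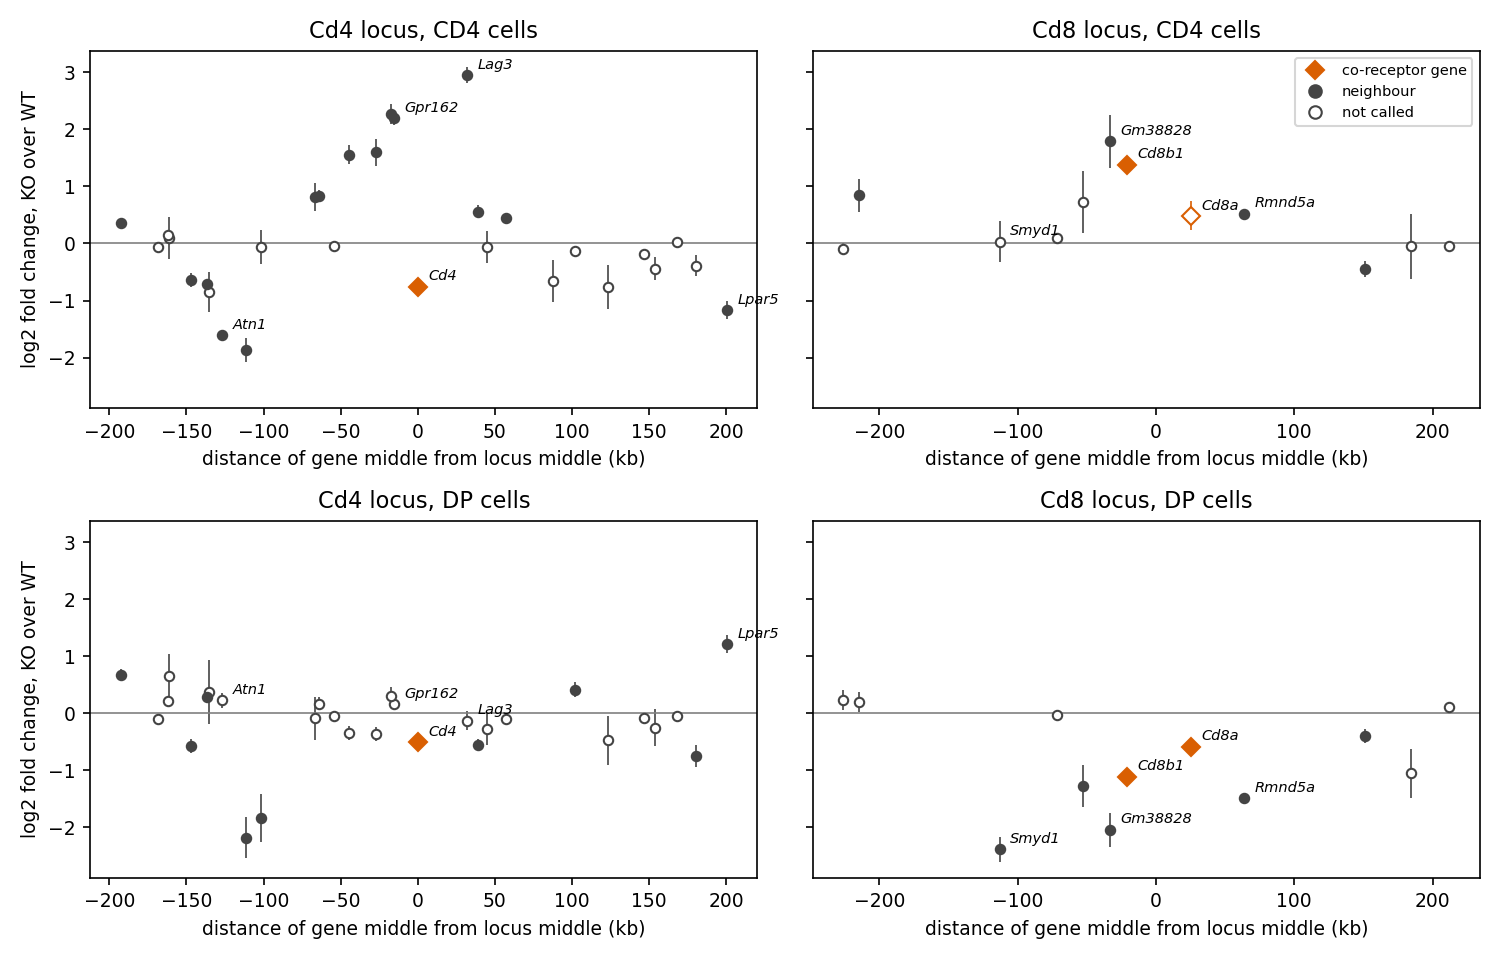
Log2 fold change of KO over WT (± SE) for tested genes within 200 kb of the Cd4 gene and of the Cd8 genes, against the distance of the middle of each gene from the middle of the locus in kb, in CD4 cells (top) and DP cells (bottom). Diamonds are the co-receptor genes and open symbols did not pass an adjusted p of 0.05. Lag3 at 2.95 and Gpr162 at 2.19 lie beside Cd4 at -0.76 in CD4 cells, and Rmnd5a follows Cd8b1 in sign in both cell types.

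Likeness to each co-receptor gene was the root mean square difference of log2 CPM, centred on each gene's mean, over the 12 libraries. The search was among 7931 other genes whose mean CPM had a log2 of 4 or more, leaving out symbols of predicted genes. As the co-receptor levels follow the sorted cell types, this is a description. Closest to Cd4 were Tnfrsf1a, a receptor for tumour necrosis factor (0.12), Slco3a1, an organic anion transporter (0.16), Evi5l (0.16) and Slc25a23, a mitochondrial carrier (0.16). Tnfrsf1a lies on chromosome 6 too, 461 kb from Cd4. It was at 47.1 ± 3.37 CPM in CD4 KO and 68.7 ± 3.79 CPM in CD4 WT, and at 71.1 ± 3.79 CPM in DP KO and 86.9 ± 5.71 CPM in DP WT. The order of groups was that of Cd4 within each cell type, which follows from choosing the gene by likeness over these libraries.

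Among the genes closest to Cd8b1 were the germ-cell gene Tdrd5 (0.25), Arpp21 (0.26) and Chrna9, a nicotinic receptor subunit gene (0.27), all on other chromosomes. Closest to Cd8a were Chrna9 (0.75), Rag1 (0.76), Cd8b1 itself (0.78) and Tdrd5 (0.88). So no gene came as near to Cd8a as several did to Cd4 or Cd8b1. From the side of Cd8b1, Cd8a stood only 170th in the order of likeness.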

How the data were processed

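The authors deposited raw read counts per gene, 1 table for DP and 1 for CD4 cells, and each column was matched to a sample by its title. Per the submitters' processing notes, Subread 1.0.1, R 4.1.5, DESeq2 and the mm10 build were used, for steps the notes do not state. The sources used here do not give the aligner run, any use of strand or the counting of multiply matching reads. Gene lengths and coordinates came with the authors' table for DP cells and were used as deposited. The labels name the CD4 columns as DP columns, but the header of that table names CD4, and this was followed.

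The deposited counts were tested with edgeR 4.0.16 (quasi-likelihood, TMM, default low-count filter) in R 4.3.3, with Benjamini-Hochberg adjustment over all genes tested and a threshold of 0.05. KO was compared with WT within a cell type (6 libraries), and the difference of both effects used all 12. Unless another fit is named with it, an adjusted p of a gene is from this test. The SE was taken from the fold change and its F statistic, as |log2 fold change| over the root of F. CPM use 1 TMM scaling over the 12 libraries, and a floor of 3 counts is at most 0.134 CPM, for counting error only. Ratios were compared with exact permutation tests. Figures were drawn with matplotlib 3.10.9. The fits were tested on simulated data.

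All pairs of libraries within a group differed beyond sampling noise (chi-square per degree of freedom 13.8 to 45.8). Replicate numbers equal the batch numbers of the labels, which pairs the libraries. Correlations of same-numbered deviations between KO and WT were 0.12, 0.16 and 0.34 in CD4 and 0.02, -0.00 and 0.18 in DP. KO replicate 1 with WT replicate 2 gave 0.18 in CD4 and 0.13 in DP. KO replicate 2 with WT replicate 1 gave 0.15 in both. The pairing of replicates 1 and 2 by number thus did not stand out. Other pairs of different numbers were all negative.

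The genes and lists were chosen with earlier results of these data known. The rule names the co-receptor genes, Satb1, all 17 regulators, the 3 partners and 3 neighbours with the smallest adjusted p in each comparison, Lag3 and the 4 most alike genes. Lck, Gm38828 and Gm32404 fall outside it. A marker gene and a gene that the rule names are not reported here, and marker sums leave the marker out. As alternatives, the fits were repeated with the size factors or the Wald test of DESeq2 1.42.0, with limma-voom (limma 3.58.1), without the low-count filter or with a minimum mean count of 10, and jointly over the 12 libraries. They were also repeated with the replicate block, with each library left out, and with DP WT replicate 3 as the lone DP WT library. For ratios the log2 ratio of group sums and a sign-flip test of pairs were used.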

Additional observations from a re-analysis of the deposited data

Results flagged for a closer look

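The KO effect differed between CD4 and DP cells by edgeR's test of the difference for Satb1 and for the co-receptor genes, regulators, partners and neighbours that follow, given as the effect in CD4 minus that in DP on the log2 scale. Among the co-receptor genes it was 2.50 for Cd8b1 and 1.08 for Cd8a. For Satb1 itself it was -0.56.

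Among the regulators the difference was 2.62 for Myb, 1.00 for Smarca4, 0.87 for Tcf12, 0.47 for Tcf7, 0.36 for Tcf3 and 0.22 for Patz1. It was -3.29 for Zbtb7b, -1.22 for Gata3, -0.83 for Tox, -0.69 for Lef1, -0.53 for Ets1 and -0.30 for Bcl11b. Zbtb7b was not called without DP KO replicate 2 (-1.25, adjusted p = 0.182) or with limma-voom (-2.33, adjusted p = 0.0726). Patz1 was not called in any fit that left out 1 library (lowest adjusted p = 0.0677). Nor was Patz1 called with the replicate block (0.0685) or with no low-count filter (0.426). Bcl11b lost its call without CD4 KO replicate 1 or 2, CD4 WT replicate 1 or 2, DP KO replicate 1 or DP WT replicate 2 (highest adjusted p = 0.110), and Lef1 without CD4 WT replicate 1, DP KO replicate 2 or DP WT replicate 2 (0.0589 to 0.0672). With DP WT replicate 3 as the lone DP WT library the calls of Zbtb7b, Patz1, Bcl11b, Lef1 and Ets1 were lost (adjusted p = 0.0674 to 0.197). Among the partners it was 1.19 for Themis, -1.20 for Fyn and -0.83 for Csk.

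Among the neighbours the difference was 3.09 for Lag3, 2.41 for Smyd1, 2.04 for Gpr162, 2.01 for Rmnd5a, -1.82 for Atn1 and -2.37 for Lpar5. Among the genes most like a co-receptor gene it was 3.16 for Rag1, 3.04 for Arpp21, 2.23 for Chrna9 and 2.23 for Tdrd5. These genes were chosen for their likeness to Cd8a or Cd8b1 over the same libraries, so the sign follows from the choice and the values are a description, with no test.

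The log2 ratio of Cd8b1 to Cd4 was higher in every KO library than in any WT library in CD4 cells and lower in every KO library in DP cells, a difference of 2.74 that was not tested. The same held for the log2 ratio of Cd8b1 to Cd8a, with a difference of 1.33 that was not tested. Groups of 3 libraries were too small to look for single outlying libraries.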

How the results depend on the processing

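The calls of Cd4 and Cd8b1 in both cell types and of Cd8b1 between them kept their direction and their side of the threshold under every alternative run. For Cd8a, 1 model over all 12 libraries gave -0.60 in DP (adjusted p = 0.0521), and in CD4 cells it was 0.49 with no low-count filter and 0.57 with the replicate block (adjusted p = 0.0435). The difference of effects of Cd4 ran from -0.34 to -0.18 with a library left out. With DP WT replicate 3 as the lone DP WT library, assumed to vary like the others, the difference for Cd8a was 0.92 (adjusted p = 0.145), the DP counts were 1907 genes, 4 regulators, 3 partners and 4 neighbours, the counts of differing effects were 3341 genes and 7 regulators, and the DP ratio of Cd8a to Cd4 changed sign to 0.043. The cause was not tested beyond the smaller number of samples. In the paired sign-flip test of the ratios the smallest p that 3 pairs allow is 0.25, and the replicate block changed no other call of a co-receptor gene. Of 1702 alternative values of 111 other gene results, 76 lost and 18 gained a call and 0 reversed.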
